A study of Mus musculus with 18 samples.

Results

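The comparison is of PHD-deficient mouse CD4+ T cells cultured with 2 ng/ml TGF-b against the same kind of cells cultured with 0 ng/ml. It rests on 4 of the 18 samples of the series, taken by their labels: the tKO1 and tKO2 libraries at 2 ng/ml and the tKO1 and tKO2 libraries at 0 ng/ml, called replicates 1 and 2 of each dose here. The tKO cells carried a Cd4Cre transgene, which is active in T cells, with all 3 of Egln1, Egln2 and Egln3 floxed, and the WT cells carried Cd4Cre with no floxed allele named in the labels. All were on the C57BL/6 background. Naive CD4+ T cells had been sorted by FACS from spleen, stimulated in culture through CD3 and CD28 by antibody and collected on day 4, so the cells without TGF-b were activated too. The same 2 doses in WT cells (2 libraries each) are set beside the tKO comparison, and the tKO and WT libraries at 0.2 ng/ml (2 each) show the level between. Messenger RNA was sequenced, and the values are FPKM, sequenced fragments per kilobase of a gene, relative to all mapped fragments of its library. The age of the mice, the other cytokines in the medium and whether the replicates came from separate animals are not stated in the labels, so p-values measure only the spread between these samples.

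TGF-b binds a pair of serine/threonine kinase receptors that phosphorylate SMAD2 and SMAD3, which enter the nucleus with SMAD4 and switch target genes on or off. In activated naive CD4+ T cells TGF-b is known to induce Foxp3, the transcription factor that defines regulatory T cells, and to restrain Th1, Th2 and cytotoxic genes. The PHD proteins, encoded by the Egln genes, use oxygen to hydroxylate HIF proteins and so mark them for degradation by the VHL ubiquitin ligase. T cells that lack them keep HIF active, which favours glycolysis.

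The values do not test the deletion, since a floxed allele loses only some exons and FPKM is summed over the gene. Egln1 had 116 and 108 FPKM in tKO cells at 2 ng/ml and 112 and 92.8 FPKM in tKO cells without TGF-b, against 21.7 and 20.4 FPKM in WT cells at 2 ng/ml and 44.3 and 36.6 FPKM in WT cells without it. Egln2 had 29.8 and 21.9 FPKM at 2 ng/ml and 39.0 and 29.7 FPKM without TGF-b in tKO cells. Egln3, itself a HIF target, had 77.4 and 79.4 FPKM at 2 ng/ml and 140 and 111 FPKM without TGF-b in tKO cells, against 11.0 and 14.9 FPKM and 18.7 and 14.0 FPKM in WT cells. None of the 3 Egln genes passed the test between the doses in tKO cells. Hif1a (43.9 and 43.9 FPKM at 2 ng/ml, 64.7 and 24.5 FPKM without) and Vhl (38.2 and 41.3 FPKM at 2 ng/ml, 45.4 and 38.8 FPKM without) had overlapping groups, and Epas1, which encodes HIF-2a, was under 1 FPKM in all 4 libraries.

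Replicates correlated at r = 0.977 across genes at 2 ng/ml and at r = 0.973 without TGF-b. The FPKM of a library summed to 563272 and 548974 in tKO cells at 2 ng/ml and to 711375 and 779265 in tKO cells without TGF-b. Depth cannot be read from FPKM and is unknown. Y-linked genes summed to between 60.5 and 67.6 FPKM in the tKO libraries of replicate 1 at the 3 doses and to 0.007 FPKM or less in those of replicate 2, so the tKO replicates came from mice of different sex, in the same way at both doses compared. The 6 WT libraries summed to 0.008 FPKM or less, and whether the spread between the WT replicates is technical is not known. T cell markers summed to 2864 and 2728 FPKM at 2 ng/ml and 2640 and 2686 FPKM without TGF-b, and of the 10 tested 1 was called, Cd247, which was lower (72.7 and 59.2 FPKM against 129 and 120 FPKM; limma, adjusted p = 0.0688 without replicate 2 at 2 ng/ml). B cell markers summed to 33.4 and 32.9 FPKM at 2 ng/ml and 96.5 and 45.8 FPKM without TGF-b, and none of the 6 tested passed. Dendritic and MHC class II markers summed to 1023 and 1128 FPKM at 2 ng/ml and 1343 and 1130 FPKM without. Of 12 myeloid markers 7 were at 0 in all 4 libraries and the sum was at most 11.8 FPKM, while NK, mast cell and erythroid markers summed to at most 2.74 FPKM. CD8 T cell markers summed to at most 14.6 FPKM and the list for gamma-delta and NKT cells to at most 3.87 FPKM. At 2 ng/ml that sum was Cd1d1, to the digits given. Cd1d1 encodes the molecule that presents lipid to NKT cells, so it does not mark them. It was called higher (3.87 and 3.35 FPKM against 1.62 and 0.669 FPKM). Its log2 fold change was 0.81 to 1.46 over the leave-outs, with the call lost in all but that of replicate 1 at 0 ng/ml. In these bulk samples, fewer cells of a type and less RNA per cell cannot be told apart.

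Adding 2 ng/ml TGF-b to tKO cells changed 1867 of the 10354 genes tested, which is 18% (limma on log2(FPKM + 1), Benjamini-Hochberg adjusted p under 0.05, two-sided). Of these, 786 (7.59%) rose and 1081 (10.4%) fell. These shares are the background for the counts of every gene list below in tKO cells. With a trend with transcript length taken out, as described below, 846 rose and 873 fell. The median log2 fold change over all genes tested was -0.01. The count depended on single libraries. Without replicate 1 at 2 ng/ml 327 rose and 398 fell, without replicate 2 at 2 ng/ml 297 rose and 285 fell, and without replicate 2 at 0 ng/ml 327 rose and 252 fell, whereas without replicate 1 at 0 ng/ml 764 rose and 1067 fell. With any 1 of the 4 libraries left out, 227 rises and 193 falls were called every time. Losses of a call in these fits are given beside the gene or its list. With 2 libraries a group, values that do not overlap are common: this held for all 1867 genes called and for 4480 of the 8487 not called.

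The gene with the largest rise was Itgae, which encodes CD103, the integrin alpha chain that holds T cells to epithelial E-cadherin. It had 57.8 and 48.7 FPKM in tKO cells at 2 ng/ml, against 0.970 and 0.0101 FPKM in tKO cells without TGF-b (log2 fold change 5.26 ± 0.36 SE; limma, adjusted p = 1.97e-06). Foxp3 (X:7134466-7182546 in the mm9 coordinates of the deposited table) had 86.7 and 142 FPKM at 2 ng/ml, against 1.99 and 3.77 FPKM without TGF-b (log2 fold change 4.89 ± 0.28 SE; adjusted p = 4.85e-07). At 0.2 ng/ml Foxp3 had 40.2 and 30.9 FPKM, so the 3 doses were in order with no overlap. WT cells had 120 and 168 FPKM of Foxp3 at 2 ng/ml, close to the tKO range, and 51.4 and 50.5 FPKM without TGF-b, far above it. The TGF-b effect on Foxp3 was larger in tKO than in WT cells by 3.42 ± 0.40 on the log2 scale (SE; limma test of the difference, adjusted p = 0.00123).

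Of 18 regulatory T cell genes tested, 8 rose and 2 fell, beside 7.59% and 10.4% of all genes, with a median log2 fold change of 0.38. With any 1 library left out 7 of the rises and none of the falls were called every time. Lrrc32, which encodes GARP, the surface protein that docks latent TGF-b, had 17.0 and 13.0 FPKM at 2 ng/ml, against 2.80 and 1.30 FPKM without TGF-b in tKO cells. Ikzf4, which encodes the Foxp3 partner Eos, had 31.9 and 34.2 FPKM at 2 ng/ml, against 9.53 and 6.83 FPKM without. Nt5e, which encodes CD73, the ectoenzyme that makes adenosine from AMP, had 278 and 272 FPKM at 2 ng/ml, against 22.4 and 19.4 FPKM without (log2 fold change 3.66 ± 0.34 SE; limma, adjusted p = 2.81e-05). Entpd1, which encodes CD39, the enzyme upstream of CD73, had 5.63 and 3.88 FPKM at 2 ng/ml, against 0.723 FPKM and a value listed at 0 without. The falls were Tigit, an inhibitory receptor (13.3 and 7.20 FPKM at 2 ng/ml, 31.8 and 26.4 FPKM without; adjusted p = 0.0546 without replicate 2 at 2 ng/ml), and Icos, a costimulatory receptor (57.2 and 70.9 FPKM, 91.9 and 122 FPKM), whose call was lost in 3 of the 4 leave-outs, all but that of replicate 1 at 0 ng/ml (adjusted p up to 0.245). The effect differed from that in WT cells for 8 of the 18, 6 upwards and 2 downwards, where 2.97% of all genes differed.

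**Figure D1:**
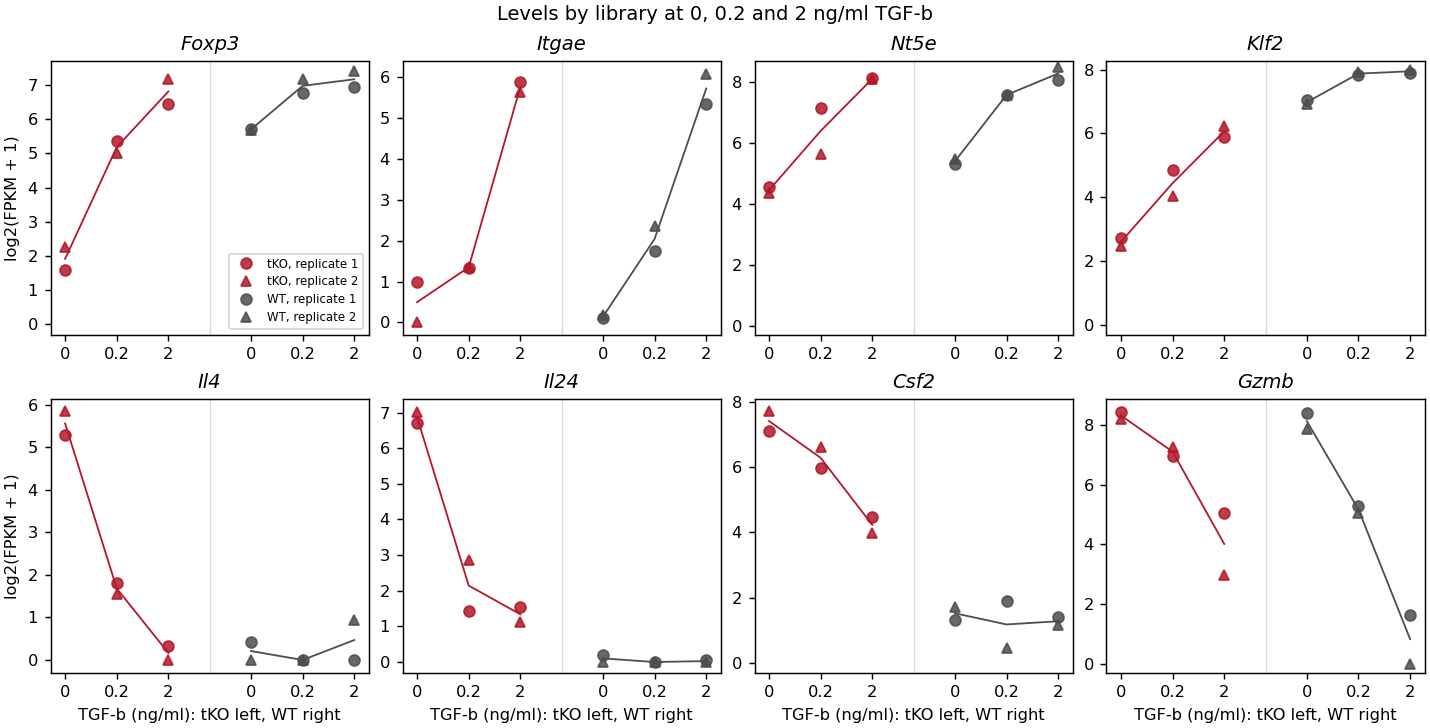
Levels of 8 genes in each library, as log2(FPKM + 1) on the vertical axis, at 0, 0.2 and 2 ng/ml TGF-b on the horizontal axis, for tKO cells in the left part and WT cells in the right part of each panel. Circles are replicate 1, triangles replicate 2 and lines join the means; Foxp3, Itgae, Nt5e and Klf2 were higher at 2 than at 0 ng/ml in tKO cells and Il4, Il24, Csf2 and Gzmb lower, with no overlap between the 2 doses.

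Genes of the TGF-b pathway are given by their place in it. Of the ligands and their activators, Tgfb1 had 124 and 139 FPKM at 2 ng/ml, against 85.4 and 76.9 FPKM without TGF-b in tKO cells, and Lrrc32 is given above. Both were called higher, of 4 tested, although the Tgfb1 call was lost in all leave-outs but that of replicate 1 at 0 ng/ml (adjusted p up to 0.122). Of the 10 receptors tested 4 rose and none fell, with a median log2 fold change of 1.03. Tgfbr2, the receptor that binds the ligand first, had 32.9 and 25.2 FPKM at 2 ng/ml, against 10.3 and 4.90 FPKM without (log2 fold change 1.87 ± 0.30 SE; limma, adjusted p = 0.00118). Its partner Tgfbr1 had 16.1 and 22.8 FPKM at 2 ng/ml, against 3.20 and 8.50 FPKM without, and the call was lost without replicate 2 at 2 ng/ml (log2 fold change 1.09, adjusted p = 0.0719). Acvr1, a type I receptor for BMP and activin, had 5.39 and 4.87 FPKM, against 0.919 and 0.982 FPKM. Acvrl1, the type I receptor ALK1, had 13.7 and 11.5 FPKM at 2 ng/ml, against 3.17 and 3.11 FPKM without in tKO cells, and 1.40 and 0.320 FPKM, against 8.30 and 4.61 FPKM, in WT cells. The direction of Acvrl1 was thus opposite in the 2 genotypes (difference 3.73 ± 0.51 on the log2 scale, adjusted p = 0.00201), while its tKO call was lost without replicate 1 at 2 ng/ml and without replicate 2 at 0 ng/ml (adjusted p up to 0.0651).

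None of the 5 SMAD genes of the signal passed the test in either genotype, at a median log2 fold change of 0.16 in tKO cells. Over all genes 18% were called in tKO and 15.7% in WT cells, so this count is no result about the SMAD genes. Smad2 had 9.70 and 10.1 FPKM at 2 ng/ml, against 11.7 and 9.70 FPKM without TGF-b in tKO cells. Smad4 had 22.5 and 20.1 FPKM, against 18.2 and 13.5 FPKM. Smad3 had 1.72 FPKM and a value listed at 0 at 2 ng/ml, against 2.93 and 2.02 FPKM without.

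Genes that switch the signal off are known to be induced by it, and 5 of the 9 tested rose with none lower, at a median log2 fold change of 1.26. All 5 rises were called with any 1 library left out. Ldlrad4, which keeps SMAD2 and SMAD3 from the receptor, had 47.2 and 42.7 FPKM at 2 ng/ml, against 1.92 and 1.01 FPKM without TGF-b (log2 fold change 4.24 ± 0.24 SE; limma, adjusted p = 4.85e-07). Smad7, the inhibitory SMAD, had 10.0 and 6.76 FPKM, against 1.95 and 1.63 FPKM (log2 fold change 1.73 ± 0.28; adjusted p = 0.00131). The corepressor genes Tgif1 (48.7 and 44.3 FPKM, against 18.6 and 16.4 FPKM) and Ski (28.1 and 24.9 FPKM, against 11.3 and 9.65 FPKM) rose as well. Pmepa1, which binds SMAD2 and SMAD3, had 58.7 and 60.7 FPKM at 2 ng/ml, against 34.4 and 40.4 FPKM without, and missed the threshold in tKO cells (adjusted p = 0.0736). The effect did not pass the test of a difference from WT for any of the 9.

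Of 14 known TGF-b target genes in T cells 9 rose and 2 fell in tKO cells, at a median log2 fold change of 1.40, against 10 and 3 at a median of 3.21 in WT cells, where 7.79% of all genes rose and 7.91% fell. With any 1 library left out 7 of the rises and neither fall were called every time. Lgals3, the lectin galectin-3, had 329 and 312 FPKM at 2 ng/ml, against 96.2 and 125 FPKM without TGF-b. Sox4, a transcription factor that TGF-b induces in T cells, had 5.01 and 8.02 FPKM, against 0.380 and 0.395 FPKM in tKO cells, and 66.4 and 71.9 FPKM, against 1.58 and 2.03 FPKM in WT cells. Itgae is the largest rise among them. Ccr8, a chemokine receptor counted with the regulatory T cell genes above, had 663 and 630 FPKM, against 349 and 379 FPKM in tKO cells, and 465 and 404 FPKM, against 67.5 and 87.1 FPKM in WT cells. Of the 14 targets 1 had a higher and 4 had a lower effect in tKO cells by the test of the difference, the 4 being Lgals3, Sox4, Spp1 and Spsb1. The higher one was Gpr183, an oxysterol receptor (difference 1.42 on the log2 scale; limma, adjusted p = 0.0408), which, like Spp1, is named after its values were seen. Ccr8 had a lower effect too. The effect was smaller in tKO cells by 1.10 ± 0.25 for Lgals3, 2.24 ± 0.42 for Sox4 and 1.66 ± 0.27 for Ccr8 on the log2 scale (SE; limma, adjusted p = 0.0333, 0.0139 and 0.00655). Sox4 stayed lower in tKO cells at 2 ng/ml, while Ccr8 was already higher in tKO cells without TGF-b. The Ccr8 call in tKO cells was lost in all leave-outs but that of replicate 1 at 0 ng/ml (adjusted p up to 0.083).

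Cytokine genes of the Th2 type were high in tKO cells without TGF-b and near 0 with it. Il4, the cytokine that starts Th2 differentiation, had 0.254 FPKM and a value listed at 0 at 2 ng/ml, against 37.9 and 56.4 FPKM without TGF-b (log2 fold change -5.40 ± 0.38 SE; limma, adjusted p = 2.57e-06). Il5, which drives eosinophils, had 2.87 FPKM and a value listed at 0, against 62.4 and 48.9 FPKM. Il13, which acts on epithelium and smooth muscle, had 0.0332 and 1.03 FPKM, against 12.5 and 20.7 FPKM. Already at 0.2 ng/ml these genes were low, at 2.53 and 1.91 FPKM for Il4, 4.29 and 16.5 FPKM for Il5 and 0.697 and 1.70 FPKM for Il13. In the 4 WT libraries at 2 and 0 ng/ml, none of the 3 reached 1 FPKM. The effect differed from that in WT cells by -5.66 ± 0.54 for Il4, -4.84 ± 0.82 for Il5 and -3.56 ± 0.58 for Il13 on the log2 scale (limma, adjusted p = 0.000489, 0.00801 and 0.00655).

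Of the 10 Th2 genes tested 6 fell and 1 rose, at a median log2 fold change of -1.15, and 5 of the falls were called with any 1 library left out. Il24, a cytokine of the IL-10 family, had 1.93 and 1.18 FPKM at 2 ng/ml, against 104 and 130 FPKM without TGF-b (log2 fold change -5.53 ± 0.41 SE; adjusted p = 3.03e-06), and 0.152 FPKM or less in the 4 WT libraries. Gata3, the master transcription factor of Th2 cells, had 66.2 and 72.0 FPKM, against 126 and 112 FPKM. Its call was lost in all leave-outs but that of replicate 2 at 0 ng/ml (adjusted p up to 0.0916). The rise was Maf, a transcription factor used in several helper subsets, with 23.5 and 22.4 FPKM at 2 ng/ml, against 1.70 and 4.33 FPKM without.

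The promoters of Foxp3 and of the 3 neighbouring Th2 cytokine genes are shown because Foxp3 rose and these 3 cytokine genes fell together. Each is the 250 bases before the annotated start in RefSeq (GRCm38.p6), written 5′ to 3′ on the gene's strand, Foxp3 at chrX:7579426-7579675 on the plus strand, Il4 at chr11:53618666-53618915 on the minus strand, Il13 at chr11:53634703-53634952 on the minus strand and Il5 at chr11:53720544-53720793 on the plus strand. Capitals mark CAGAC or GTCTG, the SMAD-binding motif on either strand, and GCGTG or CACGC, a core of the HIF-binding motif on either strand; ACGTG or CACGT, the other HIF core, was searched too and is not in these windows. In the searches CACGTG counts as both ACGTG and CACGT, and overlapping CACGC and GCGTG are counted separately.
Foxp3: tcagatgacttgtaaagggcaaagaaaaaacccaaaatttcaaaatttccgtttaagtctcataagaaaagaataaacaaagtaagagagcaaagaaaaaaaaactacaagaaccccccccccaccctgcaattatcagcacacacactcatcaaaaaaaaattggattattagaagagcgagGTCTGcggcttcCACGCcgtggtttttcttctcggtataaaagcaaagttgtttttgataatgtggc
Il4: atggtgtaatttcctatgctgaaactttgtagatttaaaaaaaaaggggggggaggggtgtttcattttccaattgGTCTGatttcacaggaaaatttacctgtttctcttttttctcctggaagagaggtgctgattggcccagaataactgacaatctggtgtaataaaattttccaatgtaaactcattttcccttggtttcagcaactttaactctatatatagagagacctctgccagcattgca
Il13: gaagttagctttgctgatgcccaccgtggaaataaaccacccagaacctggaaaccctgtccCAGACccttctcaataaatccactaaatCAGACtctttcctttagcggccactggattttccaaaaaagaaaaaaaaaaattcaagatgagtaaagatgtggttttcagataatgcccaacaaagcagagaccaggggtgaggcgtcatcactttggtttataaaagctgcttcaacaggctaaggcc
Il5: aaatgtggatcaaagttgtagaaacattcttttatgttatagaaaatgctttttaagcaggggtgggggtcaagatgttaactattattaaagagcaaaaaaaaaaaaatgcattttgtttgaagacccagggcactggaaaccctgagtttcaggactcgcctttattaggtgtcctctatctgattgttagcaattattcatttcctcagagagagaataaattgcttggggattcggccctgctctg
Foxp3 has 1 SMAD motif and 1 HIF core, Il4 has 1 SMAD motif, Il13 has 2 and Il5 has none. These letters are common: of the 7588 tested genes with such a promoter, 40.4% have the SMAD motif, as do 42.5% of the 583 with a promoter that rose and 42.5% of the 807 that fell. The shares for ACGTG or CACGT were 17.8% of those that rose, 23.4% of those that fell and 23.4% of all, and for GCGTG or CACGC 46.5%, 47.7% and 47.7%. A match is a description of the letters, not of binding.

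The Th9 and shared cytokine genes fell for the most part, with 7 lower and 2 higher of 11 tested, beside 10.4% and 7.59% of all genes. Their median log2 fold change was -1.63. The count of falls was 3 without replicate 1 at 2 ng/ml, 2 without replicate 2 at 0 ng/ml and 2 without replicate 2 at 2 ng/ml. Csf2, which encodes GM-CSF, had 21.3 and 14.9 FPKM at 2 ng/ml, against 137 and 211 FPKM without TGF-b (log2 fold change -3.18 ± 0.41 SE; limma, adjusted p = 0.000263), and 2.30 FPKM or less in the 4 WT libraries. Il3, a neighbour of Csf2 that encodes a growth factor for myeloid progenitors, had 6.40 and 0.592 FPKM, against 17.5 and 37.5 FPKM, with the call lost without replicate 2 at 0 ng/ml (adjusted p = 0.088) and without replicate 2 at 2 ng/ml (log2 fold change -1.85, against -2.96 in all libraries; adjusted p = 0.0844). Il2, the T cell growth factor, had 2.51 and 2.75 FPKM, against 10.7 and 33.7 FPKM, and kept its call in 1 of the 4 leave-outs, that of replicate 1 at 0 ng/ml (adjusted p up to 0.13). Il9, the Th9 cytokine, had 88.6 and 158 FPKM at 2 ng/ml, against 207 and 717 FPKM without, and missed the threshold (log2 fold change -1.69 ± 0.56 SE; adjusted p = 0.052). In WT cells Il9 had at most 2.67 FPKM at either dose. The rises were Ccl1, the ligand of CCR8, with 866 and 386 FPKM, against 85.5 and 139 FPKM, and Il1r2, the decoy receptor for IL-1, with 13.9 and 19.2 FPKM, against 5.89 and 3.78 FPKM (adjusted p = 0.0584 without replicate 2 at 2 ng/ml).

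Of 16 Th1 genes 3 rose and 4 fell, beside 7.59% and 10.4% of all genes, at a median log2 fold change of -0.62. The rises, all called with any 1 library left out, were receptor genes: Il18rap (9.20 and 7.40 FPKM at 2 ng/ml, 0.861 and 0.742 FPKM without), Il18r1 (15.8 and 13.8 FPKM, 1.51 and 4.25 FPKM), which together form the IL-18 receptor, and Ifngr1, a chain of the interferon-gamma receptor (93.4 and 79.7 FPKM, 30.7 and 26.4 FPKM). The falls were Ccl5, Stat4, Il12rb1 and Il12rb2, the last 3 being parts of IL-12 signalling. Il12rb2 had 29.9 and 13.8 FPKM at 2 ng/ml, against 99.8 and 66.0 FPKM without. No fall was called in every leave-out, with 1 called without replicate 1 at 0 ng/ml and none without replicate 2 at 2 ng/ml (adjusted p up to 0.0844 for Ccl5, 0.0642 for Stat4, 0.134 for Il12rb1 and 0.116 for Il12rb2). Ifng, the Th1 cytokine, had 32.6 and 2.30 FPKM at 2 ng/ml, against 18.8 and 32.0 FPKM without, so the replicates at 2 ng/ml stood apart and the groups overlapped (adjusted p = 0.281). Tbx21, which encodes T-bet, had 28.4 and 15.6 FPKM at 2 ng/ml, against 61.2 and 36.9 FPKM without in tKO cells (adjusted p = 0.0975). In WT cells Tbx21 was at a listed 0 in each library at 2 ng/ml, against 20.7 and 6.22 FPKM without TGF-b, and the difference of the effect missed the threshold (adjusted p = 0.0521).

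Of 8 Th17 genes 5 rose and 1 fell, at a median log2 fold change of 1.79, and the rises numbered 3 without replicate 1 and 3 without replicate 2 at 2 ng/ml. Ccr6, the chemokine receptor of Th17 cells, had 136 and 211 FPKM at 2 ng/ml, against 13.1 and 33.0 FPKM without TGF-b (log2 fold change 2.96 ± 0.35 SE; limma, adjusted p = 0.000164). Rora, a Th17 transcription factor, had 40.2 and 34.7 FPKM, against 7.80 and 5.30 FPKM. Ahr, the aryl hydrocarbon receptor, had 7.72 and 5.51 FPKM, against 0.454 and 0.931 FPKM, and Cyp1a1, the cytochrome that this receptor is known to induce, had 5.91 and 7.79 FPKM at 2 ng/ml while listed at 0 in both libraries without. The cytokine gene Il17f had 116 and 124 FPKM, against 4.88 and 35.3 FPKM. The spread of the untreated replicates was wide, and the Il17f call was lost without replicate 1 at 2 ng/ml and without replicate 2 at 2 ng/ml (adjusted p up to 0.0631), while its log2 fold change of 3.05 became 1.74 without replicate 1 at 0 ng/ml. The fall was Batf (33.8 and 54.7 FPKM, 127 and 187 FPKM), an AP-1 factor of helper subsets, and its relative Batf3 fell further, to 1.14 and 1.26 FPKM at 2 ng/ml, against 64.4 and 79.1 FPKM without (log2 fold change -5.04 ± 0.36; adjusted p = 2.79e-06).

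The cytotoxic genes moved both ways, with 2 higher and 3 lower of 11 tested, beside 7.59% and 10.4% of all genes. Their median log2 fold change was -0.05. Gzmb, the protease granzyme B, had 32.0 and 6.91 FPKM at 2 ng/ml, against 347 and 290 FPKM without TGF-b (log2 fold change -4.30 ± 0.55 SE; limma, adjusted p = 0.000281). Serpinb9, the inhibitor that shields cells from their own granzyme B, had 14.5 and 8.66 FPKM, against 68.6 and 68.8 FPKM. Srgn, the granule proteoglycan serglycin, had 191 and 129 FPKM, against 740 and 732 FPKM in tKO cells, and 342 and 265 FPKM, against 275 and 281 FPKM in WT cells, a difference of the effect of -2.34 ± 0.34 (adjusted p = 0.00382). The rises were Ctsw, the cysteine protease cathepsin W, with 189 and 198 FPKM, against 9.63 and 12.1 FPKM (log2 fold change 4.04 ± 0.19; adjusted p = 8.25e-08), and Nkg7, a granule membrane protein, with 493 and 243 FPKM, against 127 and 113 FPKM (adjusted p = 0.0642 without replicate 1 at 2 ng/ml).

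Genes of adhesion, migration and the naive state rose more often than they fell, whereas 7.59% of all genes rose and 10.4% fell. Of 19 integrin and migration genes 10 rose and 1 fell, at a median log2 fold change of 0.83. The rises numbered 4 without replicate 1 at 2 ng/ml, 4 without replicate 2 at 0 ng/ml and 5 without replicate 2 at 2 ng/ml. Beside Itgae and Ccr6, Cxcr6, a chemokine receptor of tissue T cells, had 41.4 and 30.6 FPKM at 2 ng/ml, against 0.915 and 1.45 FPKM without TGF-b, and Selplg, the selectin ligand PSGL-1, had 304 and 315 FPKM, against 146 and 131 FPKM. The fall was Itgb3, an integrin beta chain (4.01 and 3.73 FPKM, 13.8 and 15.5 FPKM). Of 13 naive and recirculation genes 7 rose and 1 fell, at a median of 0.62, and the rises numbered 4, 4 and 3 without those libraries. Klf2, the transcription factor that keeps T cells recirculating, had 58.5 and 74.5 FPKM, against 5.61 and 4.63 FPKM in tKO cells, and 238 and 254 FPKM, against 130 and 120 FPKM in WT cells. Its effect was larger in tKO cells by 2.49 ± 0.33 on the log2 scale (limma, adjusted p = 0.00201), and its tKO level at 2 ng/ml stayed below the 4 WT libraries at 2 and 0 ng/ml. Tcf7, which encodes TCF-1 (76.8 and 70.2 FPKM, 26.3 and 31.9 FPKM), and the costimulatory receptor gene Cd27 (72.3 and 58.3 FPKM, 28.9 and 17.1 FPKM) rose as well. The fall was Satb1, a chromatin organiser, with 19.5 and 14.9 FPKM, against 131 and 92.0 FPKM.

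Other genes with large changes are known from several settings. Atp1b1, a subunit of the sodium pump (51.4 and 65.4 FPKM at 2 ng/ml, 1.31 and 2.27 FPKM without), Aqp3, a water and glycerol channel (55.7 and 72.0 FPKM, 3.10 and 4.29 FPKM), and Xcl1, the chemokine lymphotactin (287 and 68.3 FPKM, 5.44 and 13.1 FPKM), rose. Idi2, an isopentenyl-diphosphate isomerase (26.9 and 38.2 FPKM, 0.528 and 2.78 FPKM), and Dgat2, which makes triglyceride (36.4 and 41.3 FPKM, 1.79 and 2.69 FPKM), rose in tKO cells and had at most 7.09 FPKM in the 4 WT libraries at 2 and 0 ng/ml. Pde1a, a cyclic nucleotide phosphodiesterase (1.21 and 0.833 FPKM, 71.6 and 93.3 FPKM), Tgm2, a transglutaminase (8.50 and 6.74 FPKM, 180 and 137 FPKM), and Atf3, a stress-induced transcription factor (31.2 and 25.9 FPKM, 277 and 248 FPKM), fell. Of 19 immediate early genes 1 rose, 1 fell and 17 were not called, not above the shares of all genes (7.59% and 10.4%). The fall was Atf3, and the rise was Jun, an AP-1 subunit, with 87.1 and 63.3 FPKM at 2 ng/ml, against 16.8 and 10.1 FPKM without. In both genes the groups lay far apart. Snord47 and Snord55, small RNA genes inside host genes, were listed at 0 in both tKO libraries at 2 ng/ml, and Snord34 in both without TGF-b; the calls of Snord55 and Snord34 were lost in 4 and 3 leave-outs (adjusted p up to 0.203 and 0.0667), and an exact 0 may mark a failed estimate, so no fold is given.

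Checkpoint receptor and follicular helper genes moved in both directions, where 7.59% of all genes rose and 10.4% fell. Of 13 checkpoint receptor genes 6 rose and 3 fell, at a median log2 fold change of 0.36, and 2 of the rises and 2 of the falls were called with any 1 library left out. Cd96, an inhibitory receptor for the nectin-like protein CD155, had 84.6 and 114 FPKM at 2 ng/ml, against 32.5 and 35.1 FPKM without TGF-b. The falls were Tigit, given above, Btla, an inhibitory receptor for HVEM (19.7 and 22.7 FPKM at 2 ng/ml, 62.2 and 57.2 FPKM without), and Cd200, the ligand of an inhibitory receptor (119 and 94.8 FPKM, 367 and 335 FPKM). Pdcd1, which encodes PD-1, had 282 and 255 FPKM, against 149 and 165 FPKM, and was called in the fit of all libraries (adjusted p = 0.0494) and in none of the 4 leave-outs (adjusted p = 0.151 to 0.232). Of 8 follicular helper genes 2 rose and 4 fell, at a median of -0.54. Sh2d1a, the adaptor SAP, had 37.8 and 42.7 FPKM, against 109 and 197 FPKM. Bcl6, their master transcription factor, had 4.54 and 1.72 FPKM, against 0.690 and 0.173 FPKM, and lost its call without replicate 1 at 2 ng/ml (log2 fold change 0.95, against 1.46 in all libraries; adjusted p = 0.212) and without replicate 2 at 0 ng/ml (adjusted p = 0.185).

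**Figure D2:**
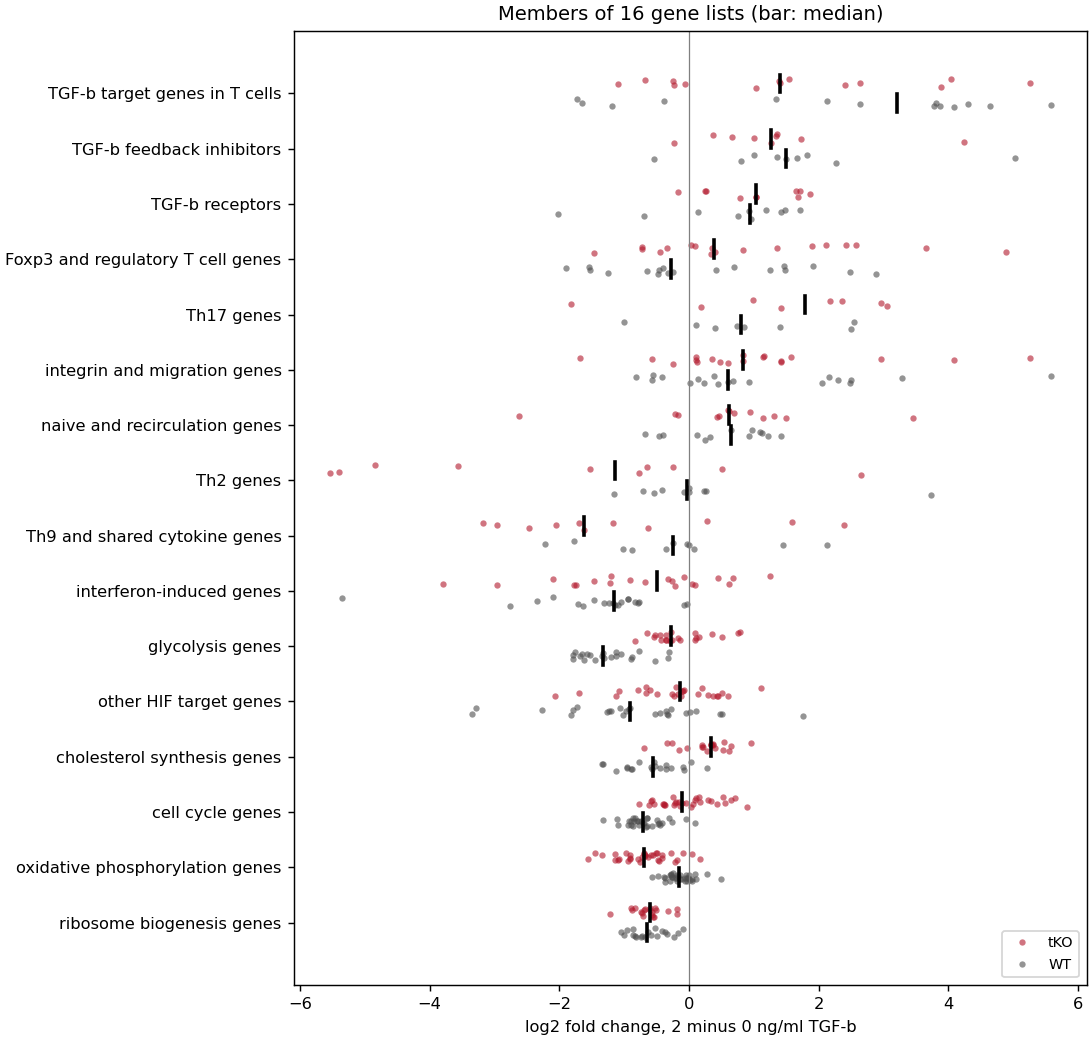
Counts and medians of 16 gene lists. Each dot is a tested gene, placed by its log2 fold change (2 minus 0 ng/ml, on the log2(FPKM + 1) scale) on the horizontal axis, with tKO above WT in each list and a bar at the list's median; the glycolysis median was -0.28 in tKO and -1.32 in WT cells, and the Th2 median -1.15 in tKO and -0.04 in WT cells.

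Glycolysis genes were called lower in tKO cells at a share near that of all genes, of which 10.4% fell. Of 22 tested 2 fell and none rose, at a median log2 fold change of -0.28, beside -0.01 over all genes. In WT cells 19 were lower at a median of -1.32, where 7.91% of all genes fell. The effect differed between the genotypes for 6 of the 22, each time with the higher effect in tKO cells, beside 1.55% of all genes. The 2 calls, Gapdh (3535 and 3912 FPKM at 2 ng/ml, 5377 and 6329 FPKM without) and Hk2, which encodes hexokinase 2 (22.0 and 22.1 FPKM, 38.1 and 42.3 FPKM), were made in all libraries together. Gapdh lost its call in all leave-outs but that of replicate 1 at 0 ng/ml (adjusted p up to 0.18), and Hk2 lost it in all 4 (adjusted p up to 0.221). Slc2a1, the glucose transporter GLUT1, had 170 and 135 FPKM at 2 ng/ml, against 182 and 184 FPKM without in tKO cells, and 28.0 and 15.3 FPKM, against 77.0 and 58.4 FPKM in WT cells. The WT groups of Slc2a1 lay wholly below the tKO groups, and the difference of the effect missed the threshold (1.38 ± 0.35 SE; adjusted p = 0.0526).

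Of 26 other HIF target genes 1 rose and 5 fell in tKO cells, against 1 and 14 in WT cells, at medians of -0.14 and -0.92. Over all genes 7.59% rose and 10.4% fell in tKO cells, and 7.79% and 7.91% in WT cells. Bnip3, a mitophagy receptor, had 720 and 710 FPKM at 2 ng/ml, against 765 and 875 FPKM without in tKO cells, and 24.0 and 31.9 FPKM, against 101 and 94.8 FPKM in WT cells (difference of the effect 1.59 ± 0.23 SE; limma, adjusted p = 0.00382). The tKO falls held with any 1 library left out for 2 genes. Stc2, a secreted glycoprotein, had 18.5 and 20.7 FPKM, against 77.7 and 92.9 FPKM, and Hilpda, a lipid droplet protein that inhibits lipolysis, had 115 and 95.8 FPKM, against 309 and 378 FPKM. The number of falls was 3 without replicate 1 at 2 ng/ml, 2 without replicate 2 at 0 ng/ml and 2 without replicate 2 at 2 ng/ml. The cholesterol synthesis genes had 2 higher and none lower of 20 in tKO cells (median 0.34), against none higher and 8 lower in WT cells (median -0.56). The tKO rises were near the share of all genes that rose. Cyp51, lanosterol demethylase, had 78.3 and 69.3 FPKM, against 52.4 and 43.2 FPKM in tKO cells, and 44.6 and 47.6 FPKM, against 79.7 and 79.6 FPKM in WT cells (difference 1.40 ± 0.24; adjusted p = 0.0092). The tKO call of Cyp51 was kept in 1 of the 4 leave-outs, that of replicate 1 at 0 ng/ml (adjusted p up to 0.204).

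The oxidative phosphorylation genes, which encode the respiratory chain, fell in 19 of 34 and rose in none, at a median log2 fold change of -0.69 in tKO cells, against 1 lower and 1 higher at a median of -0.16 in WT cells. Uqcrq, a subunit of complex III, had 188 and 167 FPKM at 2 ng/ml, against 445 and 622 FPKM without TGF-b. Ndufa2, a subunit of complex I, had 123 and 109 FPKM, against 221 and 299 FPKM in tKO cells, and 249 and 243 FPKM, against 216 and 246 FPKM in WT cells (difference -1.24 ± 0.30 SE; limma, adjusted p = 0.0427). The count was 5 without replicate 1 at 2 ng/ml, 3 without replicate 2 at 2 ng/ml, 3 without replicate 2 at 0 ng/ml and 22 without replicate 1 at 0 ng/ml. The length of the transcript moved with the fold change over all genes, and these are short, with a median of 1404 bases, against 3251 bases over the genes tested. Genes under 1000 bases had a median log2 fold change of -0.66 with 34.4% lower, those of 4000 bases or more 0.16 with 3.53% lower, and in WT cells the medians were 0.00 and 0.04. Relative to each gene's mean over the 12 libraries, genes under 1000 bases lay at a median of -0.48 and -0.49 in the tKO libraries at 2 ng/ml and at -0.08 and 0.35 in those without TGF-b, so the untreated replicates differed from each other too. At 0.2 ng/ml those tKO values were 0.08 and 0.74. With the length trend taken out of each library, an alternative chosen after the data were seen, 13 of the 34 fell at a median of -0.31, and over all genes 846 rose and 873 fell.

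**Figure D3:**
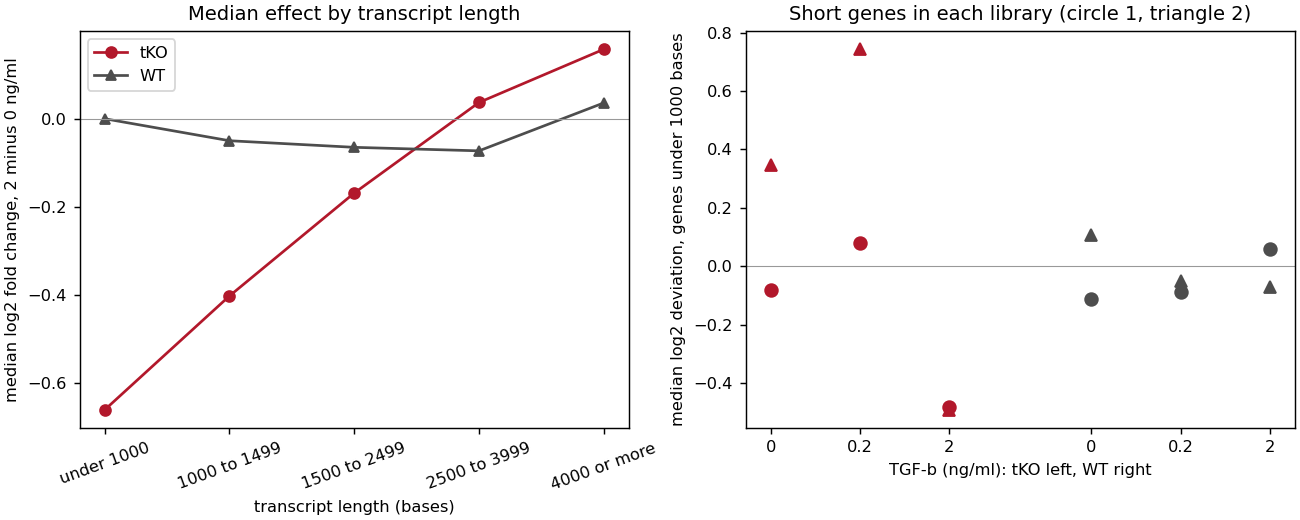
Transcript length and the fold change. Left, median log2 fold change (2 minus 0 ng/ml) of the genes in each length class, in bases, for tKO and WT cells; right, the median log2 deviation of genes under 1000 bases from their mean over the 12 libraries, per library. The tKO medians run between -0.66 in the shortest class and 0.16 in the longest, and both tKO libraries at 2 ng/ml lie lowest of the 12.

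Cell cycle genes were called in tKO cells at shares near those of all genes (7.59% higher and 10.4% lower). Of 31 tested 2 rose and 4 fell, at a median log2 fold change of -0.10, against none and 20 at a median of -0.71 in WT cells; 1 of the 31 passed the test of a difference between the genotypes, and no tKO call held in every leave-out. With quantile normalization 4 rose and none fell. Mki67, the proliferation marker Ki-67, had 47.3 and 50.2 FPKM at 2 ng/ml, against 33.3 and 26.0 FPKM without TGF-b, with its call kept in 1 leave-out, that of replicate 1 at 0 ng/ml (adjusted p up to 0.196). Myc had 181 and 185 FPKM, against 234 and 186 FPKM (adjusted p = 0.618). Of 20 ribosome biogenesis genes 11 fell and none rose in each genotype, at medians of -0.60 in tKO and -0.66 in WT cells, and the tKO count was 4 without replicate 1 at 2 ng/ml, 4 without replicate 2 at 2 ng/ml and 4 without replicate 2 at 0 ng/ml. Rrp9, a nucleolar snoRNP protein, had 41.6 and 35.7 FPKM, against 79.6 and 103 FPKM, and Nop56, of the same particles, had 169 and 193 FPKM, against 297 and 310 FPKM. With the length trend taken out 14 of the 20 fell.

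Of 24 ATF4 and amino acid genes 7 fell and none rose, at a median log2 fold change of -0.44, and 4 of the falls were called with any 1 library left out. Asns, asparagine synthetase, had 34.3 and 24.1 FPKM at 2 ng/ml, against 90.6 and 80.0 FPKM without TGF-b (log2 fold change -1.53 ± 0.23 SE; limma, adjusted p = 0.000776). The serine synthesis genes Psat1 (81.6 and 87.0 FPKM, 200 and 174 FPKM) and Psph (28.7 and 30.2 FPKM, 58.8 and 69.5 FPKM) fell with it. Of 20 interferon-induced genes 8 fell and none rose, at a median of -0.49, and 4 falls were called with any 1 library left out. Isg15, the ubiquitin-like modifier, had 1.84 and 2.22 FPKM, against 40.1 and 41.6 FPKM, and Bst2, or tetherin, had 69.8 and 55.4 FPKM, against 250 and 291 FPKM. Ifitm3, a membrane protein that blocks virus entry, had 11.7 and 9.14 FPKM, against 33.3 and 40.5 FPKM in tKO cells, and 0.761 and 1.53 FPKM, against 113 and 63.7 FPKM in WT cells, so its fall was smaller in tKO cells by 3.61 ± 0.50 (adjusted p = 0.00235). The tKO call of Ifitm3 was lost without replicate 2 at 2 ng/ml and without replicate 2 at 0 ng/ml (adjusted p up to 0.0695).

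Of 14 p53 target genes 3 rose and 2 fell, at a median log2 fold change of -0.20, where 7.59% of all genes rose and 10.4% fell. Sesn1, a stress-induced inhibitor of mTORC1 signalling, had 24.5 and 27.1 FPKM at 2 ng/ml, against 9.28 and 6.03 FPKM without TGF-b. Bax, which opens the mitochondrial outer membrane in apoptosis, had 179 and 182 FPKM, against 340 and 444 FPKM. Cdkn1a, the cell cycle inhibitor p21, had 230 and 191 FPKM, against 400 and 505 FPKM, and lost its call without replicate 2 at 2 ng/ml and without replicate 2 at 0 ng/ml (adjusted p up to 0.0781). Of 18 IL-2 family receptor and SOCS genes 1 rose and 1 fell (median 0.21). Of 20 TCA cycle genes 1 rose and 3 fell (median -0.09), and of 10 metal handling genes 1 fell (median -0.09). The counts of the IL-2 family and SOCS, TCA cycle and metal handling lists were near the shares of all genes and are no result about their members. None of the TCA cycle calls was made without replicate 1 at 2 ng/ml or without replicate 2 at 0 ng/ml, and neither IL-2 family and SOCS call in any leave-out but that of replicate 1 at 0 ng/ml. The metal handling gene was Mt1, a metallothionein, with 726 and 710 FPKM, against 1199 and 1754 FPKM in tKO cells, and 86.7 and 71.8 FPKM, against 17.2 and 19.3 FPKM in WT cells, a difference of the effect of -3.07 ± 0.38 (limma, adjusted p = 0.00146). Its tKO call was kept in 1 leave-out, that of replicate 1 at 0 ng/ml (adjusted p up to 0.204).

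The same doses changed 1626 genes in WT cells (15.7% of those tested), 807 higher (7.79%) and 819 lower (7.91%). Of the tKO calls 32.7% were also called in WT in the same direction, which is 610 genes and 37.5% of the WT calls, and 28 genes were called in both in opposite directions. The effect itself differed for 308 genes (2.97%), 160 with a higher effect in tKO cells (1.55%) and 148 with a lower one (1.43%). Of the 1229 genes called in tKO cells and not in WT cells, 142 passed the test of the difference. Across genes the tKO and WT log2 fold changes correlated at r = 0.466, as a description, since the genes of a library share its depth and preparation and are not independent. Genes that rose in both genotypes included Itgae (39.8 and 66.9 FPKM at 2 ng/ml, 0.0709 and 0.136 FPKM without, in WT cells), Ldlrad4 (117 and 122 FPKM, 2.35 and 3.08 FPKM) and Ctsw (348 and 407 FPKM, 18.5 and 17.9 FPKM). Il4, Il24, Il5, Pde1a and Batf3, which had large negative differences, had 1.42 FPKM or less in the 4 WT libraries at 2 and 0 ng/ml. The counts of genes with a difference were 43 and 39 without tKO replicate 1 at 2 ng/ml, and 42 and 36 without WT replicate 1 at 0 ng/ml.

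**Figure D4:**
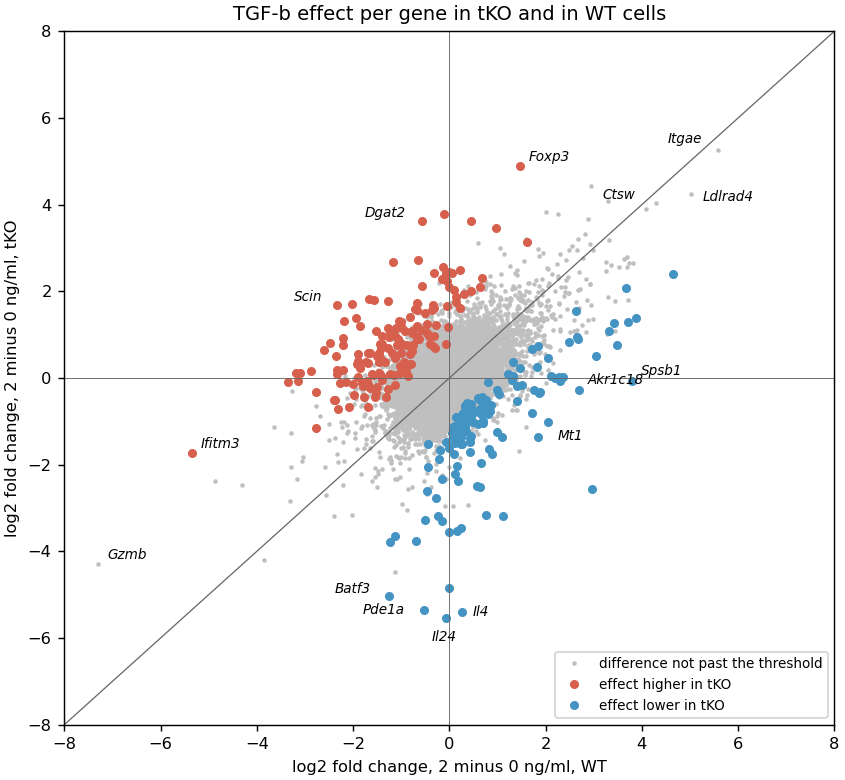
Log2 fold change of each tested gene (2 minus 0 ng/ml, on the log2(FPKM + 1) scale) in tKO cells on the vertical axis and in WT cells on the horizontal axis. Red points have a higher effect and blue points a lower effect in tKO cells by the limma test of the difference (157 and 146 genes drawn), grey points neither; 50 genes listed at 0 in both tKO libraries at 2 or at 0 ng/ml are not drawn, and Il4, Il24, Pde1a and Batf3 lie lowest among the named blue points.

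At 0.2 ng/ml the mean lay between those at 0 and 2 ng/ml for 697 of the 786 genes that rose in tKO cells (88.7%) and for 675 of the 1081 that fell (62.4%), beside 35.4% of the genes not called. Genes called were selected by a gap between the same means, so a mean between them is likelier by selection alone. These shares therefore do not test a graded response. Foxp3, Nt5e, Ldlrad4 and Klf2 were at intermediate levels at 0.2 ng/ml, with 17.6 and 14.0 FPKM for Ldlrad4 and 28.1 and 15.3 FPKM for Klf2. Itgae had 1.52 and 1.57 FPKM at 0.2 ng/ml, nearer to its level without TGF-b than to that at 2 ng/ml. Il24, at 1.71 and 6.22 FPKM, and Il4 were already near their level at 2 ng/ml. Isg15 stayed high at 0.2 ng/ml, with 39.8 and 84.9 FPKM. Gzmb had 124 and 151 FPKM, between the other doses.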

How the data were processed

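The deposited values are FPKM per library that the authors made, per the file headers, with Cufflinks, Cuffdiff, TopHat and Trimmomatic and the genome build mm9 named, without roles or versions, per the submitters' processing notes. Polyadenylated RNA was amplified with a low-input kit, per the labels' protocols, and the kit is not known to mark strand, so reads of antisense or overlapping partners cannot be told apart. The table held 34309 entries. Of these, 18 exact duplicates were dropped, 8482 without a symbol were left out (4.89% to 8.18% of the FPKM of the 4 libraries compared) and the rest were summed by symbol, which gave 22783 symbols. Entries that join 345 groups of overlapping genes were kept under the joint name.

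Genes were kept if they averaged 1 FPKM or more across the experiment's 12 libraries, and the 10354 kept were tested on log2(FPKM + 1) in limma 3.58.1 (R 4.3.3), where each of 6 groups of 2 libraries had its own coefficient, the spread modelled as a trend with the mean and estimated from all 12. The contrasts were 2 minus 0 ng/ml in tKO cells, the same in WT cells and their difference. Tests are two-sided with Benjamini-Hochberg adjustment over all genes and a threshold of 0.05, and the steps were tested on simulated data. The added 1 makes fold changes of low genes too small. No counts were used, so no interval for counting error is given. An exact 0 may mark a failed estimate and is given as listed at 0, and a fitted fold change of a gene with such a library depends on the added 1.

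The comparison, the gene lists and the alternatives were chosen with earlier results of these data known, and a gene can stand in more than 1 list. Lists are described by counts of called genes and medians, with no set test. Genes were named by a rule: the 15 largest rises and falls with no library at 0, genes listed at 0 in both libraries of 1 dose, the called members of each list with the smallest p, the largest differences from WT, and 22 fixed genes; not all of them are described, and some are not reported here. Ccr8, Pmepa1, Smad2, Smad3, Smad4, Tnfrsf18 and Myc were added after their values were seen. Promoters are the 250 bases before the start in RefSeq (GRCm38.p6), which 7588 of the tested genes matched by symbol, and transcript lengths were matched by symbol for 97.1% of the tested genes. Alternatives were other pseudocounts, filters and scalings, no mean-variance trend, the labelled replicate number as a block, fits to fewer libraries, each library left out and, chosen after the data were seen, removal of a trend with transcript length or GC content.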

Additional observations from a re-analysis of the deposited data

Results flagged for a closer look

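The following genes, of those named by the rule or added to them, had a TGF-b effect in tKO cells that differed from that in WT cells. The test was limma's test of the difference (Benjamini-Hochberg adjusted p under 0.05 over all genes tested). Ccr8 and Tnfrsf18 are among those added after their values were seen. Genes listed at 0 in both tKO libraries of a dose are left out. There were 41, 16 with a higher and 25 with a lower effect in tKO cells. Of these, 7 were called in both genotypes in opposite directions, 8 in both in the same direction, 21 in tKO cells and not in WT cells and 5 in WT cells and not in tKO cells. Many were named for a tKO call or for the size of the difference, so these counts follow in part from that choice. Over all genes tested 160 differences were higher and 148 lower. Among them, 142 were in genes called in tKO and not in WT cells, and 114 in WT and not in tKO cells. Values are the tKO log2 fold change minus that of WT.

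Cytokine genes had lower effects in tKO cells, with -5.66 for Il4, -5.46 for Il24, -4.84 for Il5, -3.94 for Il12a, -3.56 for Il13 and -2.94 for Csf2. Among transcription factors the difference was -3.79 for Batf3, -2.24 for Sox4, -2.16 for Satb1, 1.62 for Id3, 2.49 for Klf2 and 3.42 for Foxp3. Among surface and secreted proteins it was -3.20 for Sema4b, -3.15 for Timd2, -3.06 for P2ry1, -2.34 for Srgn, -1.89 for Tigit, -1.66 for Ccr8, -1.10 for Lgals3, 1.19 for Tnfrsf18, 2.75 for Lrrc32, 3.17 for Tlr2 and 3.73 for Acvrl1. Among enzymes and metabolic genes it was -4.84 for Pde1a, -3.07 for Mt1, -2.96 for Akr1c18, -1.24 for Ndufa2, 1.04 for Egln1, 1.40 for Cyp51, 1.59 for Bnip3, 3.39 for Pla2g4f, 3.88 for Idi2 and 4.20 for Dgat2. For the other named genes it was -3.85 for Spsb1, -3.69 for Ajuba, -3.15 for Gm14005, -3.08 for Fam229b, -2.56 for Isg15, 3.52 for Map6, 3.61 for Ifitm3 and 4.02 for Scin. The tKO call is a separate test from that of the difference. With 1 library left out, it was lost in 1 fit for Id3 and Tigit. Il12a, Map6, Gm14005, Scin, Acvrl1 and Ifitm3 lost it in 2 fits, and Sema4b, Ccr8, Cyp51 and Mt1 in 3. Leave-outs of the difference are not given per gene here, and most of them gave fewer differences over all genes. Scin, an actin-severing protein, had 70.8 and 63.4 FPKM at 2 ng/ml and 27.2 and 14.8 FPKM without TGF-b in tKO cells, and 0.874 and 0.710 FPKM at 2 ng/ml and 9.28 and 6.90 FPKM without in WT cells. Akr1c18, a hydroxysteroid dehydrogenase, had 505 and 383 FPKM at 2 ng/ml and 623 and 454 FPKM without in tKO cells, and 168 and 215 FPKM at 2 ng/ml and 24.4 and 33.8 FPKM without in WT cells. Spsb1 overlapped between the doses in tKO cells (17.2 and 16.4 FPKM at 2 ng/ml, 17.0 and 18.2 FPKM without) and had 23.0 and 44.4 FPKM at 2 ng/ml and 1.92 and 0.964 FPKM without in WT cells.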

How the results depend on the processing

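None of the 141 named genes called in tKO cells changed direction under these alternatives. The balance of all tKO calls turned, with 843 rises and 800 falls under quantile normalization. It turned too without replicate 2 at 0 ng/ml and without replicate 2 at 2 ng/ml. In tKO cells the 786 rises and 1081 falls became 424 and 435 when the 6 tKO libraries were fitted alone, and 712 and 1026 with the 4 libraries compared alone. Leaving out 1 tKO library gave 297 to 764 rises and 252 to 1067 falls. In WT cells the 807 rises and 819 falls became 371 to 535 and 289 to 597 with 1 WT library left out. The difference between the genotypes, 160 genes higher and 148 lower, became 77 and 80 with no filter on low values, 102 and 65 with no mean-variance trend, and 42 to 200 and 36 to 193 with 1 library left out; quantile normalization gave 270 higher. These total counts stayed within 1.5 times under the other pseudocounts, the filter at 5 FPKM and median-of-ratios scaling. They did so with the length or GC trend removed too. With the length trend removed, over the 10050 genes with a length, tKO rises became 846 and falls 873, and 76.6% of the 1867 calls were kept. Counts of single lists moved more. The Th9 falls were 7 and became 3 with a pseudocount of 0.1, and the glycolysis falls were 2 and became 4 with the filter at 5 FPKM. The causes were not tested. The labels do not say what the replicate numbers share. In tKO cells they went with the sex of the mice at each dose, which the main fit did not model. The replicate differences of pairs of doses correlated across genes at 0.127 (2 and 0 ng/ml), 0.416 (0.2 and 0 ng/ml) and 0.11 (2 and 0.2 ng/ml) in tKO and at 0.057, 0.186 and 0.09 in WT cells. With the replicate number as a block, tKO cells had 991 rises and 1408 falls, with 1864 of the 1867 calls kept, WT cells 978 and 1100, and the difference 318 and 368. Of the 141 named genes called, 43, 42 and 46 lost the call without tKO replicate 2 at 0 ng/ml, replicate 1 at 2 ng/ml and replicate 2 at 2 ng/ml, 14 without replicate 1 at 0 ng/ml, 26 with the 6 tKO libraries, 24 with no filter and 18 with quantile normalization. With 2 libraries a group and unknown depth, small changes of low genes were not detectable.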
